A study of Mus musculus with 13 samples.

Results

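The genes described here are 47 components of transforming growth factor beta (TGF-beta) and bone morphogenetic protein (BMP) signalling, chosen by name from the 46958 genes of a count table of mouse glomerular RNA. They comprise 10 ligands, 4 latent TGF-beta binding proteins, 8 receptors, 6 receptor-activated or common SMADs, 2 inhibitory SMADs, 8 secreted modulators, 4 antagonists in the membrane or nucleus and 5 early target genes. All 47 were in the table, and 45 passed the low-count filter, which kept 16738 genes in all. Fst and Chrdl1 did not pass.

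Glomeruli, the filtering units of the kidney, were purified with magnetic beads from mice of 6 months on a mixed C57/BL6x129/SVxBALB/c background, an age that the design text places early in glomerular scarring. There were 4 libraries of kFRA (LCDD) mice, 4 of DH-LMP2A mice and 5 of wild-type (WT) mice, and each library pooled 3 mice apart from WT replicates 3 to 5, which held 1 mouse each. LCDD stands for light chain deposition disease, in which antibody light chains from 1 B-cell clone build up in kidney tissue, and the series title names the toxicity of such free chains for glomeruli as its question. The labels do not spell out the alleles behind either name. As background, DH-LMP2A mice are known for a viral LMP2A gene in the heavy-chain locus, so that their B-lineage cells develop without heavy chains, and the kFRA light chain was bred onto them in the published model. The introduced light chain itself was not analysed here, and no treatment is named.

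TGF-beta is secreted bound to latent TGF-beta binding proteins, which tether it in the matrix until it is activated. Active TGF-beta and activins signal through type II and type I receptor kinases to SMAD2 and SMAD3, whereas BMPs signal to SMAD1, SMAD5 and SMAD9, and both branches share SMAD4. In the glomerulus TGF-beta is best known for driving matrix production and scarring, and BMP7 and BMP antagonists are known from kidney development and injury. SMAD6, SMAD7 and the ID proteins are induced by the pathway, the inhibitory SMADs as feedback.

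Library totals ran from 16687509 to 30587890 counts, so the smallest level taken as detectable, 3 counts, was 0.0981 to 0.180 CPM (counts relative to the library total, by which gene levels are given after TMM scaling), a limit that covers counting error only. Each title carries 1 of 4 numeric codes shared between genotypes, here numbered 1 to 4 in ascending order, which the labels do not explain. LCDD and DH-LMP2A replicates 1 to 4 have codes 1 to 4, WT replicate 1 has code 1, WT replicate 2 code 3 and WT replicates 3 to 5 code 4. Markers of the tissue were present: the 10 podocyte markers summed to 7112 CPM or more in each library, and none of the 10 lay at or under the floor throughout a group. Their sum was lowest in the code 1 library of each genotype. Summed mesangial markers (9 genes) ran from 4474 to 8249 CPM in LCDD, 3145 to 4373 in DH-LMP2A and 3984 to 4751 in WT, so LCDD and DH-LMP2A did not overlap. Endothelial markers (9 genes) summed to 6627 to 14225, 4511 to 11371 and 9200 to 13824 CPM in the same order, macrophage markers (8 genes) to 355 to 638, 223 to 442 and 419.7 to 487, and tubule markers (10 genes), which should be few in a pure preparation, to 766 to 2373, 1026 to 4160 and 280.3 to 3529. In whole glomeruli, fewer cells of a type and less RNA per cell cannot be told apart. Y-linked transcripts (4 genes) summed to 18.2 to 213 CPM in LCDD and 65.9 to 223 in DH-LMP2A but to 0 to 26.5 in WT, so a comparison with WT also compares mice of unlike sex makeup, which cannot be told apart from genotype. For codes 1 to 4 the sums were 170, 21.3, 213 and 18.2 CPM in LCDD against 114, 223, 65.9 and 126 in DH-LMP2A. Same-code pairs were thus not matched for sex makeup either.

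Per kb of exon the mean level over all libraries ran from 0.0247 CPM per kb (Chrdl1) to 128 (Id3), and genes next to each other in this order had overlapping ranges. The BMP target Id3, a helix-loop-helix inhibitor of differentiation, had the highest level, with LCDD at 141 ± 25.4 CPM per kb, DH-LMP2A at 106 ± 35.7 (SD, n = 4 each) and WT at 136 ± 29.2 (SD, n = 5). Id1 followed with means of 116, 88.4 and 113. Among receptors Tgfbr2, the type II receptor for TGF-beta, stood highest (62.8, 57.8 and 87.3 CPM per kb), followed by Acvrl1, a type I receptor of endothelium. The ligand with the highest mean level over the 13 libraries was Bmp6 (26.0, 23.3 and 37.9), followed by Bmp7 (28.3, 32.5 and 25.9); their ranges overlapped in each genotype, and so did those of Id3 and Id1. Smad4, the common SMAD, led its class with means of 23.9, 22.1 and 24.5, and Smad6 exceeded it, with 50.7, 31.3 and 49.7. Tgfb1 had a higher level per kb than Tgfb2 or Tgfb3 in each genotype, at 19.8, 12.3 and 17.6 against means of at most 3.95. Nog, Inhba, Grem1, Fst, Ltbp2 and Chrdl1 averaged under 1 CPM per kb over the libraries, as did Gdf15.

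**Figure D1:**
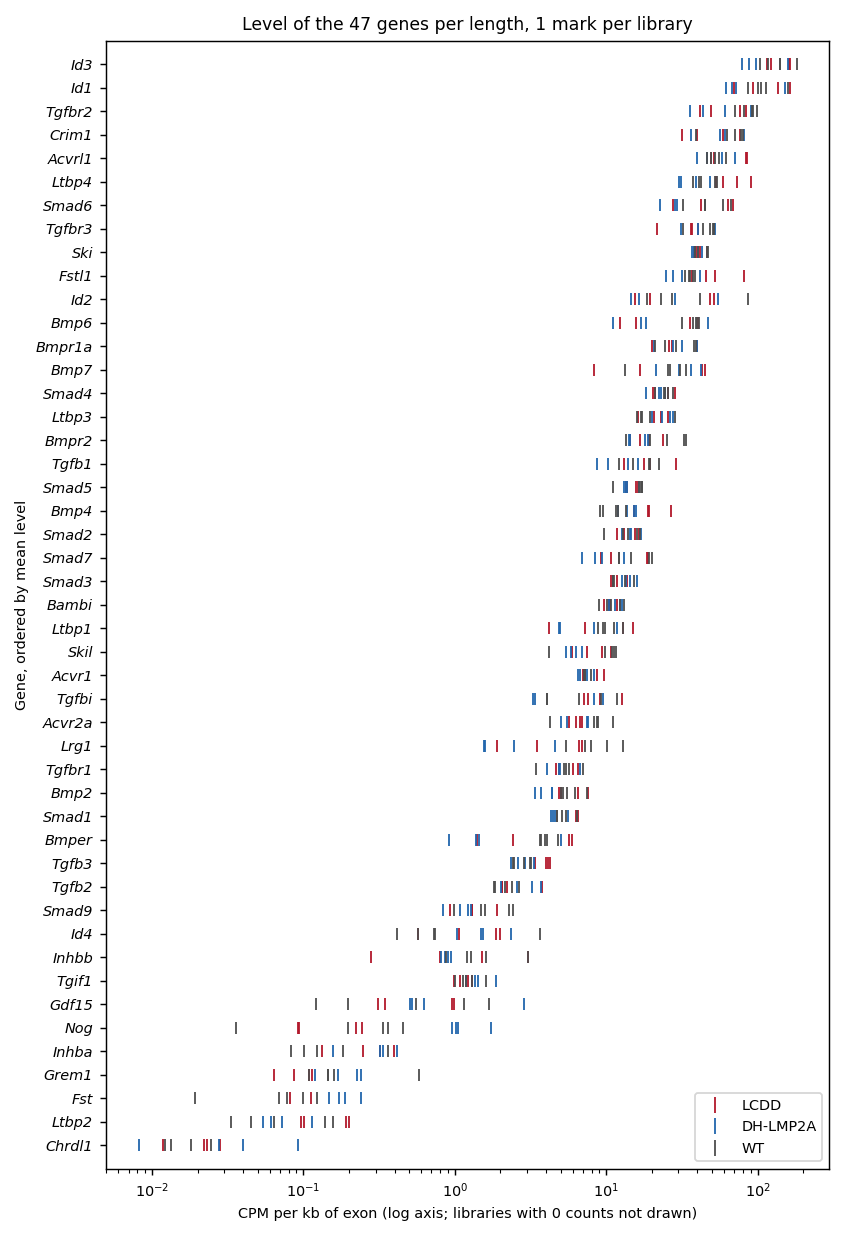
Level of each of the 47 genes in each of the 13 libraries, as CPM per kb of exon on a log axis, with 1 mark per library coloured by genotype. Id3 and Id1 sit at the top, and the DH-LMP2A marks of Nog lie apart from those of LCDD and WT, at higher levels.

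Against DH-LMP2A, the LCDD glomeruli had more Ltbp4 and less Nog, and these were the only members of the 45 past the threshold (edgeR quasi-likelihood test, adjusted p under 0.05 over all genes). Of all genes tested 1.3% were called higher and 0.693% lower, against 1 member in each direction (2.22% each), and 2% in all against 4.44% of members. The fitted difference was above 0 for 30 of 45 members and for 49% of all genes, with a median log2 fold change of 0.18 for members and -0.01 for all genes. Of the members, 10 had an unadjusted p under 0.05 (22.2%, against 13.1% of all genes), 9 of them higher (20%, against 7.95%) and 1 lower (2.22%, against 5.16%). With the code as a block 5 members were called (11.1%, against 6.1% of all genes), 3 higher (6.67%, against 3.24%) and 2 lower (4.44%, against 2.86%). Same-code libraries of these genotypes deviated together over all genes, with a mean correlation of 0.42 against -0.14 for unlike codes. For this reason the blocked values are given beside the results they change. Some unlike-code pairs deviated together as well. LCDD replicate 2 correlated at 0.52 with DH-LMP2A replicate 1, against 0.15 with DH-LMP2A replicate 2. LCDD replicate 3 with DH-LMP2A replicate 4 had 0.46, and LCDD replicate 4 with DH-LMP2A replicate 3 had 0.42. Pairing by code is thus an assumption.

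Ltbp4 encodes a latent TGF-beta binding protein of elastic matrix and lies on chromosome 7 (chr7:27305136-27337692, minus strand, mm10). Its levels were 383, 585, 475 and 345 CPM in LCDD replicates 1 to 4 and 312, 254, 195 and 201 CPM in DH-LMP2A replicates 1 to 4. Each LCDD library lay above each DH-LMP2A library, which held for 3 members (Ltbp4, Bmp2 and Tgfb3, 6.67%) and 4.05% of all genes. The difference was 0.91 ± 0.20 (SE) on the log2 scale, or 1.88-fold (edgeR adjusted p = 0.0366; 0.0188 with the code as block). WT libraries had 274, 348, 243, 264 and 338 CPM and overlapped both other genotypes. Against WT the log2 difference was 0.63 with a 95% interval of 0.23 to 1.03, and it did not pass (edgeR adjusted p = 0.131). The call against DH-LMP2A was lost on leaving out any of LCDD replicates 1 to 3, DH-LMP2A replicates 2 to 4 or WT replicates 3 to 5, with edgeR adjusted p up to 0.127. It was also lost with no low-count filter, at a mean of at least 5 CPM and with only the 2 genotypes fitted. The same was true without the 3 single-mouse WT libraries and with mesangial, endothelial or podocyte markers as a covariate. In all, 16 of 25 alternatives lost the call. With the mean log2 CPM of the mesangial markers as a covariate the log2 difference was 0.59 (edgeR adjusted p = 0.607). These markers did not overlap between LCDD and DH-LMP2A, so such a fit cannot cleanly separate their level from genotype. The same holds for the other fits of this comparison with mesangial markers. The part of mesangial content in the result was not tested.

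Of the other latent binding proteins, Ltbp1 and Ltbp3 had log2 differences of 0.43 and -0.18 from DH-LMP2A, and Ltbp2, at 6 to 43 counts per library, had 0.96 with an interval from -0.10 to 2.02. None was called (edgeR adjusted p at least 0.438).

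Noggin (Nog, chr11:89300638-89302332, minus strand), a secreted protein that binds BMPs and blocks their receptors, showed the widest separation. DH-LMP2A libraries had 45, 44, 53 and 40 counts, or 1.73, 1.63, 2.92 and 1.78 CPM, against 11, 10, 3 and 4 counts, or 0.412, 0.379, 0.157 and 0.159 CPM, in LCDD. WT libraries had 10, 1, 14, 17 and 15 counts, or 0.334, 0.0607, 0.567, 0.766 and 0.615 CPM. Each DH-LMP2A library was thus above every library of both other genotypes, and LCDD and WT overlapped. Lower values without overlap against DH-LMP2A were also found for Grem1 (2 members, 4.44%, against 3.29% of all genes). The level in LCDD was lower than in DH-LMP2A by 7.02-fold, a log2 difference of -2.81 ± 0.54 (SE; edgeR adjusted p = 0.0185; 0.0189 with the block), and lower under each of the 4 codes, with log2 differences of -1.87, -1.89, -3.64 and -2.94 for codes 1 to 4. DH-LMP2A exceeded WT by 2.10 ± 0.48 (SE), which did not pass (edgeR adjusted p = 0.0762). The call was lost without LCDD replicate 4 or DH-LMP2A replicate 2 or 3 (edgeR adjusted p = 0.0564, 0.0516 and 0.0655), and with mesangial markers as a covariate (0.406), where the log2 difference was -3.52. Tubule markers had their highest median in DH-LMP2A, and with them as a covariate Nog was called too (edgeR adjusted p = 0.00708). The part of tubule content in the Nog level was not tested.

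**Figure D2:**
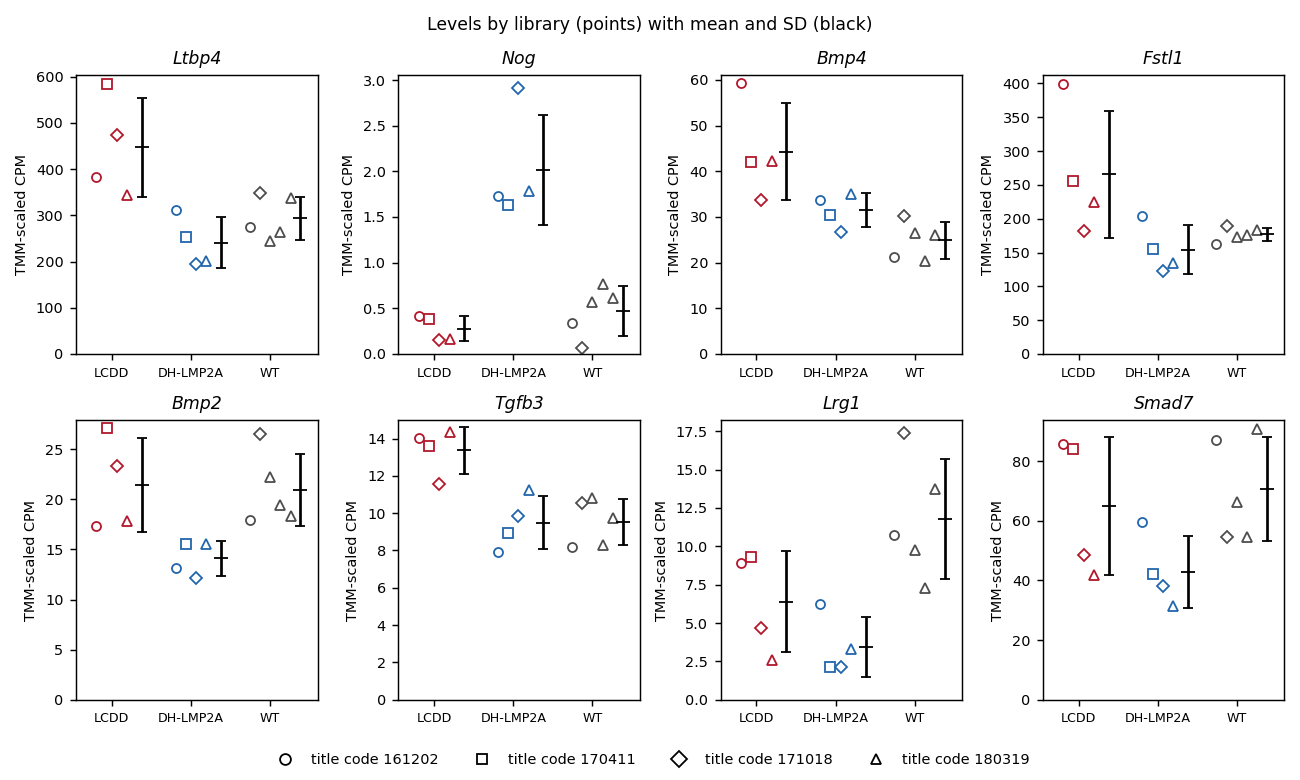
TMM-scaled CPM of 8 genes in each library, by genotype, with the marker giving the title code and the black bar the mean and SD (n = 4, 4 and 5). Ltbp4, Bmp2 and Tgfb3 points of LCDD all lie above those of DH-LMP2A, Nog points of DH-LMP2A lie above those of LCDD and WT, and Bmp4 points of LCDD all lie above those of WT.

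The ligands Bmp2, Bmp4, Tgfb1 and Tgfb3 were higher in LCDD than in DH-LMP2A under each of the 4 codes. None passed the threshold in the edgeR fit of genotype alone. Bmp2 had 17.4, 27.1, 23.3 and 17.8 CPM in LCDD against 13.1, 15.6, 12.1 and 15.6 CPM in DH-LMP2A, so the groups did not overlap. Its log2 difference was 0.61 ± 0.18 (SE; edgeR adjusted p = 0.110), and with the code as block 0.59, which passed (edgeR adjusted p = 0.0383). WT libraries had 18, 26.5, 22.3, 19.5 and 18.3 CPM of Bmp2, above all DH-LMP2A libraries and within the LCDD range. The log2 difference of LCDD from WT was 0.06, with an interval of -0.31 to 0.42.

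Tgfb3, a TGF-beta isoform, was the other ligand whose LCDD libraries (14.0, 13.6, 11.5 and 14.3 CPM) lay above all DH-LMP2A libraries (7.90, 8.91, 9.85 and 11.2 CPM). They also lay above all WT libraries, at 8.21, 10.6, 10.8, 8.29 and 9.72 CPM, which held for 2 members (Tgfb3 and Bmp4, 4.44%) and 2.75% of all genes. The log2 differences were 0.51 ± 0.16 (SE) from DH-LMP2A and 0.52 ± 0.15 (SE) from WT, and neither passed (edgeR adjusted p = 0.144 and 0.121). With DESeq2 both passed (DESeq2 adjusted p = 0.0403 and 0.0286). Tgfb1, the isoform most studied in glomerular scarring, had 98.0, 146, 65.9 and 89.4 CPM in LCDD, 82.3, 70.2, 51.8 and 43.8 in DH-LMP2A and 97.3, 112, 75.6, 61.2 and 97.6 in WT. All 3 genotypes overlapped. Its log2 difference was 0.70 (interval 0.15 to 1.25) from DH-LMP2A and 0.19 (interval -0.33 to 0.71) from WT (edgeR adjusted p = 0.222 and 0.872). Tgfb2, Bmp6, Bmp7 and the activin subunits Inhba and Inhbb were not called in any comparison, nor was Gdf15, a stress-induced member of the family at 5 to 137 counts.

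Bmp4, a BMP ligand of mesenchyme and endothelium, was the member called in LCDD against WT (chr14:46383520-46390669, minus strand). LCDD libraries had 59.2, 42.0, 33.8 and 42.3 CPM and WT libraries 21.2, 30.2, 26.5, 20.4 and 26.0 CPM, so that each LCDD library exceeded each WT library. DH-LMP2A lay between, at 33.8, 30.3, 26.8 and 35.1 CPM, and overlapped both. The log2 difference of LCDD from WT was 0.86 ± 0.17 (SE), or 1.82-fold (edgeR adjusted p = 0.0185), and from DH-LMP2A 0.51 ± 0.18 (SE; edgeR adjusted p = 0.198). In this comparison 1.3% of all genes were called higher and 0.544% lower (1.84% in all), against 1 and 0 of the 45 members, and 5 members had an unadjusted p under 0.05 (edgeR; 11.1%, against 12% of all genes). Without the 3 single-mouse WT libraries the log2 difference was 0.77 (edgeR adjusted p = 0.339), and without WT replicate 4 or 5 the adjusted p was 0.0589 and 0.0506. With Y-linked markers as a covariate it was 0.48 (edgeR adjusted p = 0.643), and with mesangial or podocyte markers it was 0.52 and 0.69 (0.212 and 0.0793). An exon of Gm15217 on the opposite strand shares bases with Bmp4. It had 0 to 28 counts per library, against at least 452 for Bmp4.

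Promoter sequence was matched for 33 of the 47 genes in RefSeq windows on GRCm38.p6 (250 bases before to 50 after a start site), 44 windows in all. They were searched on both strands for GGCGCC, a GC-rich site bound by BMP-activated SMADs, for the palindrome GTCTAGAC, and for the shorter SMAD box CAGAC; none of these contains another. GGCGCC occurred in 13 of the 44 windows (29.5%) and in 11.9% of 32851 promoter windows of all genes, CAGAC in 43.2% and 49.6%, and GTCTAGAC in 1 window (2.3%) and 0.2%. For Ltbp4 and Smad5 the same GGCGCC match was counted more than once, in overlapping windows. GGCGCC holds only G and C, and the windows compared were not matched for GC content. Nog, the other called gene, was among the 14 genes without a matched window and was not searched. Shown are the windows of the called genes Ltbp4 and Bmp4 and of Smad6 and Id3, the feedback SMAD and target with the highest levels in their classes. All are printed 5′ to 3′ on the gene's strand, with matches in capitals.
Ltbp4, minus strand, chr7:27333614-27333913: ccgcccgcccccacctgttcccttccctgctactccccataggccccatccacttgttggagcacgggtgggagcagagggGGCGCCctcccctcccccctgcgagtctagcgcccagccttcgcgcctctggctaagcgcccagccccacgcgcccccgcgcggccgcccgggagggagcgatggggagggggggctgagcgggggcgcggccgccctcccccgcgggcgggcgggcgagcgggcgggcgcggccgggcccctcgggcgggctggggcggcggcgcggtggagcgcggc
Bmp4, minus strand, chr14:46390620-46390919: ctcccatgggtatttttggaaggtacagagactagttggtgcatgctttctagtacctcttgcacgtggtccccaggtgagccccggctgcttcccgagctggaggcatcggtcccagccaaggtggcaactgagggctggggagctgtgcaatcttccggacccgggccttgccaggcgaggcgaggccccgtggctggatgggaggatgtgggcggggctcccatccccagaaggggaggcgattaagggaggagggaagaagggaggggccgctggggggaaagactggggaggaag
Smad6, minus strand, chr9:64022010-64022309: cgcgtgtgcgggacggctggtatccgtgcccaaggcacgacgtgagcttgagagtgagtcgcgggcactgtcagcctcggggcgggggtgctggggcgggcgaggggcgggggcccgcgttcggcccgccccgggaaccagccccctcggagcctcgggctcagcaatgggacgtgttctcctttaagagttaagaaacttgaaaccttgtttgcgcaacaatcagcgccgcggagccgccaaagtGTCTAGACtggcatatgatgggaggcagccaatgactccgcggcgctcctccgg
Id3, plus strand, chr4:136143572-136143871: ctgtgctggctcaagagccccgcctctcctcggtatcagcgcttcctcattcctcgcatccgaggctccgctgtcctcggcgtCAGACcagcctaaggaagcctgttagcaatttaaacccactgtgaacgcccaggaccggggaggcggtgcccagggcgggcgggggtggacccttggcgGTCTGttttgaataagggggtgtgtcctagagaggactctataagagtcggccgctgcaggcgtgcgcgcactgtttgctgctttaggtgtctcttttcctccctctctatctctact
The Ltbp4 window shown is 1 of 3 and belongs to a start site inside the gene; it holds GGCGCC 169 bases before the start. A window that overlaps it holds the same match, and the window at the 5′ end of the gene has no match to any of the 3 motifs. Smad6 is the gene whose window has the palindrome, which begins 4 bases before its start, and Id3 has CAGAC matches 167 and 68 bases before its start. The Bmp4 window has none of these letters. A match is a run of letters and not evidence of binding.

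Of the receptors none was called in any of the 3 comparisons in the fit of genotype alone, without block or covariate. In LCDD against DH-LMP2A the 95% intervals of all 8 lay within -0.86 to 0.80 on the log2 scale, so differences of 2-fold or more fell outside each. Tgfbr3, or betaglycan, a co-receptor that presents TGF-beta and inhibin, had 142, 241, 236 and 265 CPM in LCDD, 205, 338, 264 and 344 in DH-LMP2A and 210.0, 285, 330.3, 335 and 319 in WT. It was lower in LCDD than in the same-code DH-LMP2A library each time, with differences of -0.53, -0.49, -0.16 and -0.38 for codes 1 to 4 on the log2 scale. The log2 difference of -0.37 ± 0.22 (SE) did not pass (edgeR adjusted p = 0.537) until the code entered as block (-0.38, edgeR adjusted p = 0.0294). The podocyte marker sum was lower in LCDD than in DH-LMP2A under each code too. In fits without the block, the log2 difference of Tgfbr3 was -0.12 with podocyte markers as a covariate and 0.22 with mesangial markers (edgeR adjusted p = 0.843 and 0.846), and -0.21 without LCDD replicate 1. Exon bases of Tgfbr3 are shared with Gm43422, which had 2 to 36 counts. Tgfbr2 had 398, 368, 198 and 237 CPM in LCDD, 436, 291, 208 and 172 in DH-LMP2A and 446, 475, 387, 341 and 439 in WT. The log2 difference of DH-LMP2A from WT was -0.59 ± 0.27 (SE; edgeR adjusted p = 0.388). With tubule or podocyte markers as a covariate Tgfbr2 was called lower in DH-LMP2A than in WT. With mesangial or podocyte markers it was called lower in LCDD than in WT.

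None of Smad1, Smad2, Smad3, Smad4, Smad5 and Smad9, the SMADs that carry the signal to the nucleus, was called in any comparison, and in both comparisons of LCDD all 6 intervals lay within -0.91 to 0.91 on the log2 scale. Smad4 had 106, 94.8, 75.7 and 77.6 CPM in LCDD, 91.4, 86.0, 68.3 and 82.5 in DH-LMP2A and 94.4, 78.2, 102, 88.8 and 90.4 in WT, with overlap throughout. The largest estimate in LCDD against DH-LMP2A was for Smad1, a BMP-activated SMAD, at 0.35 ± 0.13 (SE; edgeR adjusted p = 0.224).

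The inhibitory SMADs, which block receptors and activated SMADs, had their lowest means in DH-LMP2A. Smad6 had 204, 221, 136 and 88.3 CPM in LCDD, 143, 91.0, 94.3 and 72.2 in DH-LMP2A and 214, 143, 103, 145 and 189.8 in WT. Smad7 had 85.6, 83.9, 48.4 and 41.8 CPM in LCDD, 59.5, 42.2, 38 and 31.5 in DH-LMP2A and 87.1, 54.6, 66.1, 54.7 and 90.6 in WT. Groups overlapped for both genes, and within each code the LCDD library exceeded the DH-LMP2A library. The log2 differences of LCDD from DH-LMP2A were 0.71 ± 0.30 and 0.62 ± 0.26 (SE), with intervals of 0.07 to 1.35 and 0.05 to 1.19 (edgeR adjusted p = 0.311 and 0.328). DH-LMP2A differed from WT by -0.65 ± 0.28 and -0.71 ± 0.25 (SE; edgeR adjusted p = 0.365 and 0.268). LCDD and WT had log2 differences of 0.06 and -0.09, with intervals within -0.63 to 0.66. The endothelial marker sum was higher in LCDD than in DH-LMP2A under each code as well. With endothelial markers as a covariate the differences of LCDD from DH-LMP2A were 0.35 and 0.25, and with mesangial markers they turned to -0.05 and -0.31, none called (edgeR adjusted p = 0.493, 0.387, 0.972 and 0.769). With tubule markers as a covariate both genes were called higher in LCDD than in DH-LMP2A (edgeR adjusted p = 0.0286 and 0.0165). Both were also called lower in DH-LMP2A than in WT with tubule or podocyte markers as a covariate. The part of cell content in these levels was not tested.

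Among secreted modulators, Fstl1, a follistatin-like glycoprotein that binds BMP4 and is made by mesenchymal cells, was higher in LCDD than in DH-LMP2A under all 4 codes, with log2 differences of 0.97, 0.72, 0.57 and 0.73 for codes 1 to 4. It had 399, 256, 182 and 225 CPM in LCDD, 204, 156, 123 and 135 in DH-LMP2A and 163, 189, 172, 176 and 183 in WT. The highest DH-LMP2A library lay above the lowest LCDD library. The log2 difference of 0.80 ± 0.21 (SE) did not pass (edgeR adjusted p = 0.0814), and with the block it was 0.78 and passed (edgeR adjusted p = 0.0335). With mesangial markers as a covariate the fitted log2 difference was -0.18 (edgeR adjusted p = 0.777). Without LCDD replicate 1 it was 0.53 (edgeR adjusted p = 0.188), and without LCDD replicate 3 or DH-LMP2A replicate 1 it passed (0.0360 and 0.0436).

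Gremlin (Grem1), a BMP antagonist induced in scarring kidney, had low counts, at 0.449, 0.266, 0.470 and 0.358 CPM in LCDD, 1, 0.706, 0.495 and 0.937 in DH-LMP2A and 2.4, 0.607, 0.607, 0.450 and 0.656 in WT. These are 7 to 72 counts. LCDD had lower values than every DH-LMP2A library and overlapped WT; the log2 differences were -1.01 ± 0.52 and -1.27 ± 0.49 (SE), neither called (edgeR adjusted p = 0.441 and 0.284). Without WT replicate 1, the highest library, the difference from WT was -0.57 (edgeR adjusted p = 0.419). Lrg1, a secreted protein that modifies TGF-beta signalling in endothelium, had 8.91, 9.33, 4.70 and 2.58 CPM in LCDD, 6.24, 2.12, 2.15 and 3.30 in DH-LMP2A and 10.7, 17.4, 9.75, 7.30 and 13.7 in WT. All DH-LMP2A libraries lay under all WT libraries. That difference, -1.77 ± 0.43 (SE) on the log2 scale, was not called (edgeR adjusted p = 0.102), and without DH-LMP2A replicate 1 it passed (0.0479). Crim1, a membrane protein that tethers BMPs, had 189.2, 239, 357 and 461 CPM in LCDD, 217, 336, 363 and 486 in DH-LMP2A and 236, 427, 466, 483 and 375 in WT, with a log2 difference of LCDD from DH-LMP2A of -0.17 (interval -0.85 to 0.51). Bmper was not called in any comparison. Fst, the activin-binding follistatin, had at most 15 counts in a library and Chrdl1 at most 14.

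The nuclear repressor Ski, which binds SMADs, had 230.0, 257, 212 and 217 CPM in LCDD, 225, 237, 205 and 212 in DH-LMP2A and 215, 262, 224, 214 and 259 in WT. Its log2 difference of LCDD from DH-LMP2A was 0.07, with an interval of -0.17 to 0.31. Its relative Skil, itself a TGF-beta target, had 104, 90.8, 72.4 and 57.3 CPM in LCDD, 52.7, 67.1, 57.1 and 60.8 in DH-LMP2A and 109, 40.4, 106, 95.6 and 113 in WT. WT replicate 2 was the lowest library of all. Without it DH-LMP2A was lower than WT with an edgeR adjusted p of 0.0474, and with it the adjusted p was 0.342. With Y-linked markers as a covariate the log2 difference turned from -0.62 to 0.28 (edgeR adjusted p = 0.854). Bambi and Tgif1 were not called in any comparison.

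The target genes were Id1, Id2, Id3, Id4 and Tgfbi, the last a matrix protein induced by TGF-beta. They were not called between genotypes in the fit of genotype alone (edgeR adjusted p at least 0.438 in the 3 comparisons). Id3 had 289, 295, 219 and 208 CPM in LCDD, 283, 158, 174 and 141 in DH-LMP2A and 324, 251, 209, 187 and 249.8 in WT. The genotypes overlapped, and the log2 difference of LCDD from DH-LMP2A was 0.44 ± 0.22 (SE; edgeR adjusted p = 0.438). With tubule markers as a covariate Id3 was called higher in LCDD than in DH-LMP2A (edgeR adjusted p = 0.0324). In that fit it was also called lower in DH-LMP2A than in WT (edgeR adjusted p = 0.0260).

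**Figure D3:**
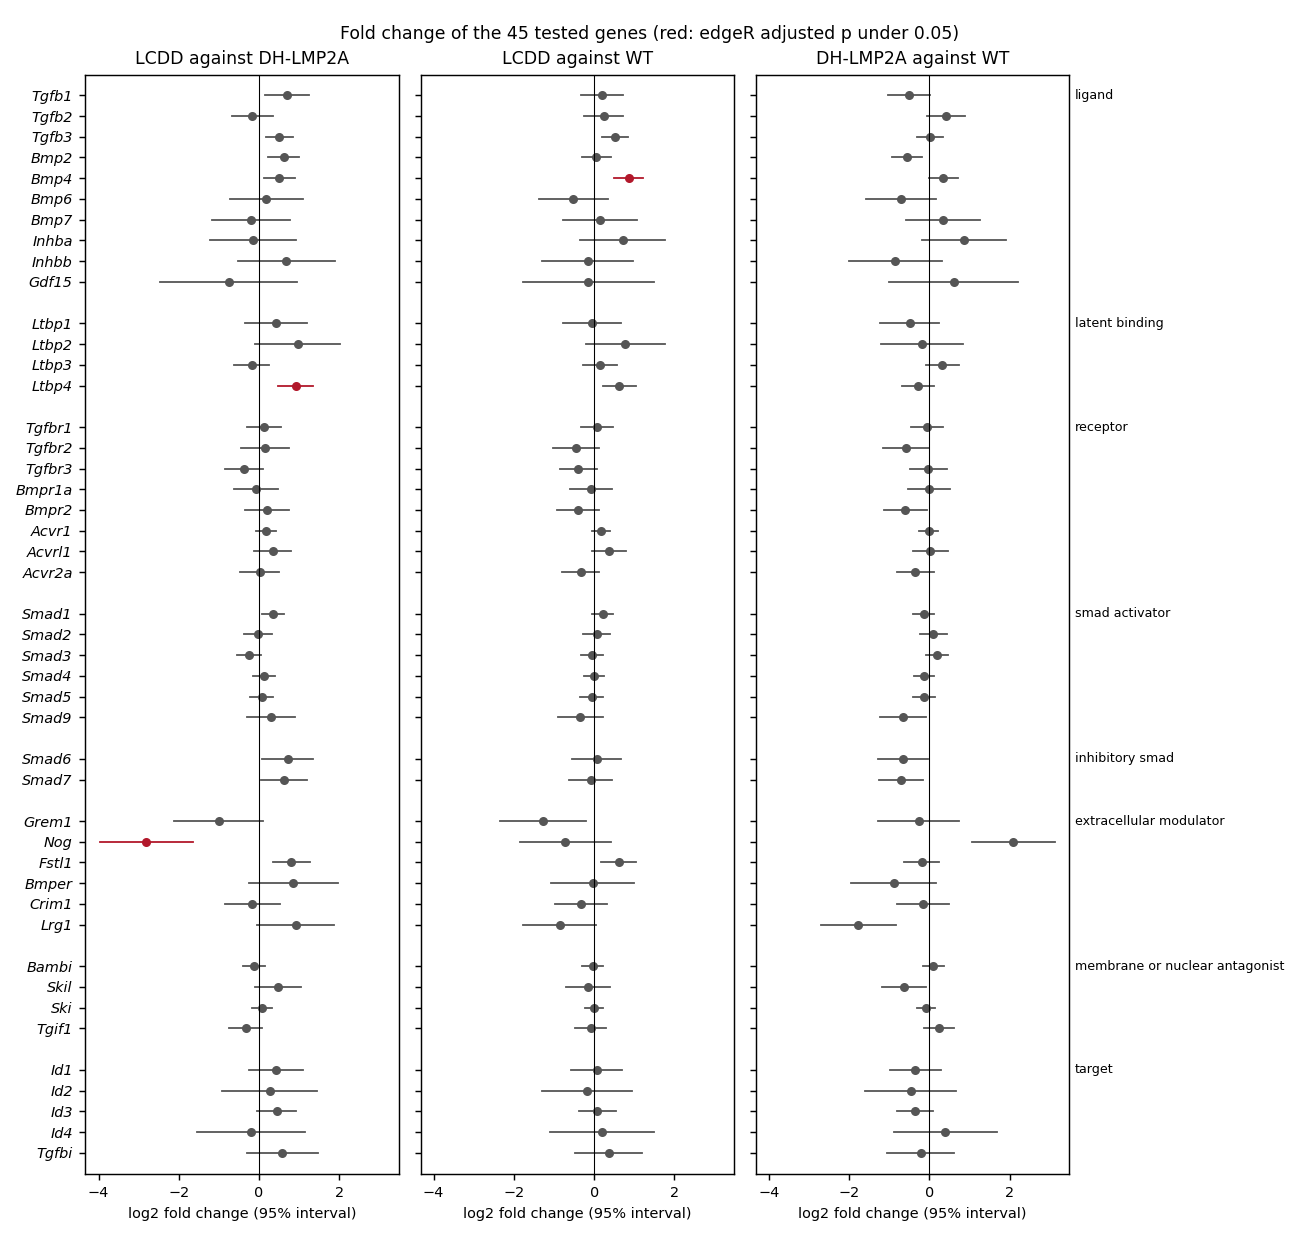
Fitted log2 fold change of the 45 tested genes with 95% intervals, in 1 panel per comparison, grouped by role. Red marks an edgeR adjusted p under 0.05: Ltbp4 and Nog in LCDD against DH-LMP2A and Bmp4 in LCDD against WT, and 0 genes in DH-LMP2A against WT.

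In DH-LMP2A against WT 0 of 45 members were called by edgeR, where 0.627% of all genes were (0.275% higher, 0.352% lower), and 9 members had an unadjusted p under 0.05 (20%, against 12.5% of all genes), 8 lower (17.8%, against 5.79%) and 1 higher (2.22%, against 6.67%). DESeq2 called 2 members, Nog and Lrg1, among 472 genes in all, against 105 genes called by edgeR. The fitted difference was above 0 for 15 of the 45 and for 50.1% of all genes, and the median was -0.16 against 0.00 for all genes. This comparison and LCDD against DH-LMP2A share the DH-LMP2A libraries, so a low or high DH-LMP2A value enters both. Nog was higher without overlap (2.22%, against 2.64% of all genes), and Lrg1 and Bmp2 were lower without overlap (4.44%, against 2.34%). For Bmp2 the log2 difference was -0.56 ± 0.17 (SE; edgeR adjusted p = 0.189).

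Pair by pair within the codes, 15 of the 45 members were higher in LCDD than in DH-LMP2A all 4 times (33.3%, against 16.3% of all genes), and 8 were lower all 4 times (17.8%, against 16.9%). The 15 were Tgfb1, Tgfb3, Bmp2, Bmp4, Ltbp4, Acvrl1, Smad1, Smad9, Smad6, Smad7, Fstl1, Bmper, Ski, Id1 and Id3. The 8 were Inhba, Ltbp3, Tgfbr3, Smad3, Grem1, Nog, Crim1 and Tgif1. Sizes varied with the code: Ltbp4 differed by 0.29, 1.20, 1.28 and 0.78, and Bmp4 by 0.81, 0.47, 0.33 and 0.27 on the log2 scale for codes 1 to 4. Mesangial, endothelial and macrophage marker sums were also higher in LCDD in all 4 pairs, and podocyte and tubule sums were lower. With mesangial markers as a covariate the fitted difference turned below 0 for Bmp4, Id3 and Lrg1 too, at -0.09, -0.17 and -0.52 (edgeR adjusted p = 0.905, 0.856 and 0.759).

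**Figure D4:**
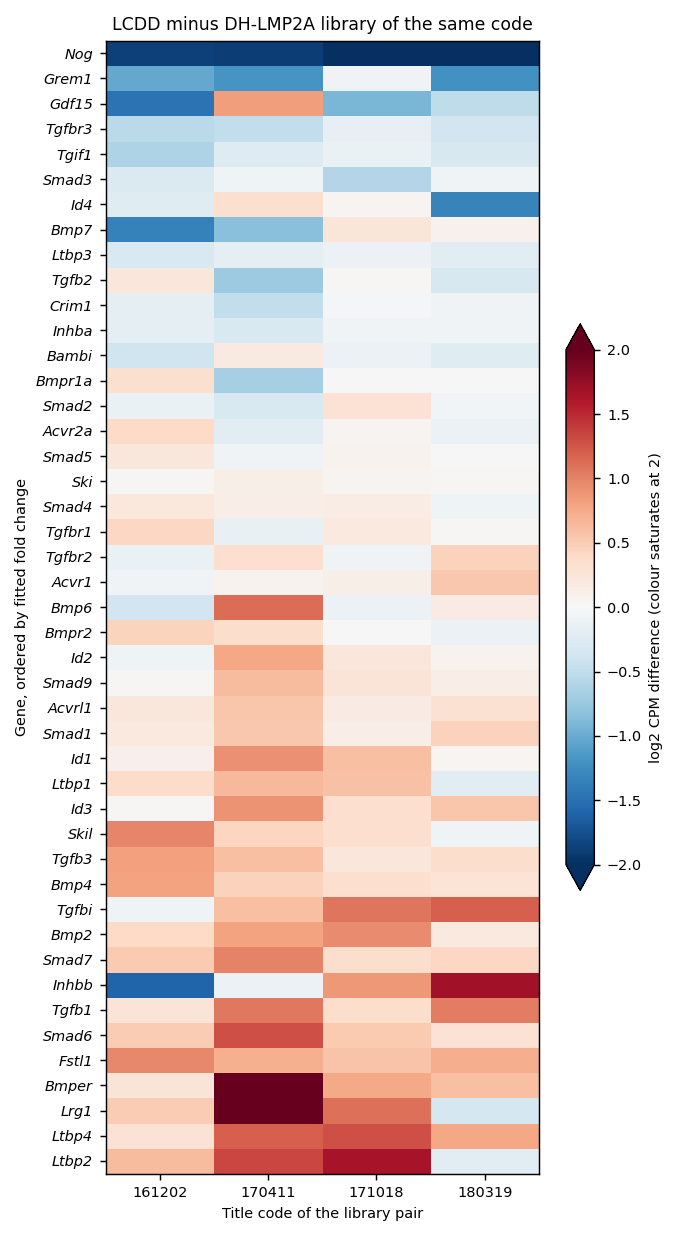
Difference in log2 CPM between the LCDD and the DH-LMP2A library of the same title code, for the 45 tested genes ordered by fitted fold change (red higher, blue lower in LCDD). Nog is blue and Ltbp4, Fstl1 and Smad7 are red in all 4 columns, while Inhbb, Bmp7 and Gdf15 change sign between columns.

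The title code was called for 9 of the 45 members (20%), a share near the 18.6% of all genes called by the same edgeR F test of the code. Id1, Id2, Id3, Id4 and Gdf15 were lower under code 4 than under code 1, with differences of -0.96, -1.60, -0.67, -1.81 and -2.35 on the log2 scale with genotype in the model (edgeR adjusted p = 0.0165, 0.00825, 0.0375, 0.0286 and 0.0491). These 5 are 11.1% of members, against 9.34% of all genes called and lower under code 4. Bmp7, Crim1, Tgfbr3 and Ltbp3 were higher under code 4, by 1.48, 1.08, 0.76 and 0.31 (edgeR adjusted p = 0.0141, 0.00825, 0.00825 and 0.0184). Id1, for example, had 189.5, 159, 108 and 80.5 CPM in LCDD replicates 1 to 4 and 176, 84.1, 71.5 and 78.4 in DH-LMP2A. Summed podocyte markers ran the other way in LCDD, from 7112 and 13500 CPM under the 2 lower codes to 30710 and 26774 under the 2 higher ones. Their part in these levels was not tested.

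**Figure D5:**
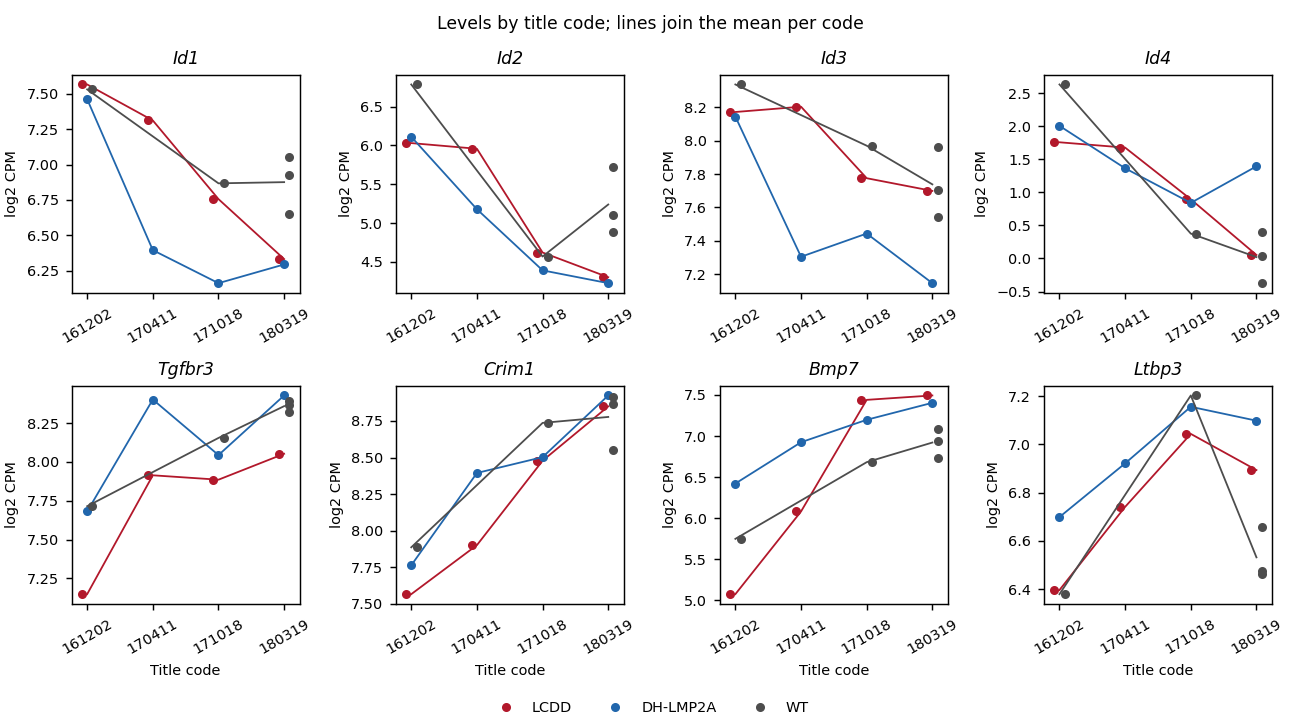
log2 CPM of 8 of the 9 genes called for the title code, by code and coloured by genotype, with lines joining the mean per code. Id1 is highest, and Tgfbr3 and Crim1 are lowest, under the first code in each genotype.

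The rest of the pathway was read from 3 further lists. Of 63 other ligands, receptors, modulators and regulators, 62 were in the table and 47 were tested. In LCDD against DH-LMP2A 2 of the 47 were called higher and 0 lower, where 1.3% and 0.693% of all genes were. They were Gdf10, a ligand of the BMP group, with 290.3 ± 50.6 against 140.9 ± 20.2 CPM (SD, n = 4 each) and a log2 difference of 1.05 ± 0.14 (SE; edgeR adjusted p = 0.00286), and Bgn, a matrix proteoglycan that binds TGF-beta, with a log2 difference of 1.01 ± 0.23 (SE; edgeR adjusted p = 0.0448). With the block 3 were called higher, Sost among them, and 4 lower, among them Acvr1b, Nbl1 and Pmepa1, where 3.24% and 2.86% of all genes were. Nbl1, a secreted BMP antagonist, had 41.5 ± 20.5 against 138 ± 40.5 CPM (SD, n = 4 each), a log2 difference of -1.73 ± 0.41 (SE; edgeR adjusted p = 0.0515, and 0.000527 with the block). Pmepa1, a TGF-beta target that limits SMAD signalling, had -1.14 ± 0.30 (SE; edgeR adjusted p = 0.0764, and 0.00445 with the block).

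Against WT 0 of the 47 were called higher in LCDD and 1 lower, where 1.3% and 0.544% of all genes were: Bmpr1b, a type I BMP receptor, at 2.14 ± 1.12 (SD, n = 4) against 7.74 ± 2.19 CPM (SD, n = 5), a log2 difference of -1.83 ± 0.35 (SE; edgeR adjusted p = 0.0163). In DH-LMP2A against WT Gdf10 was called lower, by -0.74 ± 0.14 (SE; edgeR adjusted p = 0.0307). Of 22 genes known to respond to TGF-beta, Tnc, a matrix glycoprotein, was called higher in LCDD against DH-LMP2A (log2 difference 2.43 ± 0.45, SE; edgeR adjusted p = 0.0164). Against WT 2 of the 22 were called higher, Tnc among them, by 1.93 ± 0.41 (SE; edgeR adjusted p = 0.0299). Postn, a matricellular TGF-beta target, had 6.61 ± 0.95 CPM in LCDD against 53.7 ± 34.9 (SD, n = 4 each) in DH-LMP2A, a log2 difference of -3.01 ± 0.72 (SE; edgeR adjusted p = 0.0520, and 0.0412 with the block). Of 12 BMP response genes 7 were tested and 0 were called in any of the 3 comparisons, with or without the block (edgeR).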

How the data were processed

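RNA of 13 libraries was measured. Per the labels' protocols, libraries were stranded mRNA libraries read from both ends. The authors deposited raw read counts per gene made with featureCounts of Subread 1.5.0-p3, per the submitters' processing notes, which also name STAR 2.4.0a, DESeq2, mm10 and GRCm38. Strand setting, annotation and the treatment of multiply mapped reads are not given in the sources used here. All 47 genes overlapped their GENCODE M21 span.

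From the counts, edgeR 4.0.16 in R 4.3.3 was fitted to all libraries (glmQLFit, glmQLFTest, TMM, filterByExpr with a minimum count of 10, 1 coefficient per genotype). Adjusted p is Benjamini-Hochberg over 16738 genes, with calls under 0.05. SE is the log2 fold change divided by the root of F. CPM is TMM-scaled, and log2 CPM has a prior count of 2. Nothing says that libraries of a genotype came from separate cohorts, so p-values measure only the spread between these pools and mice. Replicates are numbered in order of deposition. No same-genotype pair looked like 1 library deposited again (chi-square per degree of freedom at least 12.6). The edgeR step was also run on simulated libraries drawn independently. These lacked the shared deviation of same-code libraries, so that run does not measure how reliable the calls here are.

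Members, lists and tests were chosen with earlier results of these data known. Each library is given for members called with or without the code as block, the 5 smallest p per comparison and the highest level per kb in each role. Tgfb1, Id1, and the test of the code itself, were added after values were seen. The code was taken to pair LCDD with DH-LMP2A libraries, since all 4 same-code correlations of deviations across genes were above 0.1 (0.15 to 0.59). Unlike-code pairs reached 0.52, so these values do not single out the code as the pairing. DESeq2 1.42.0, RLE scaling, other filters, covariates and left-out libraries were alternatives. Some genes of the wider pathway and response lists are not reported here.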

Additional observations from a re-analysis of the deposited data

Results flagged for a closer look

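Within each genotype, total counts and the log2 CPM of 18 genes given library by library were checked for a library far from the others of its genotype. Of 57 such groups 4 had one, where chance flags about 1 in 20, or 2.85. LCDD replicate 3 had 18604929 counts, against 25276687 to 26544422 in the other LCDD libraries. DH-LMP2A replicate 3 had a Nog log2 CPM of 1.59, against 0.78 to 0.90 in the others. Without it the log2 difference of LCDD from DH-LMP2A was -2.56, and its edgeR adjusted p was 0.0655. WT replicate 1 had a Grem1 log2 CPM of 1.31, against -0.90 to -0.43 in the other WT libraries. Without it the log2 difference of LCDD from WT was -0.57 in place of -1.27. WT replicate 2 had a Skil log2 CPM of 5.34, against 6.58 to 6.82. Without it DH-LMP2A was lower than WT by -0.82 on the log2 scale.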

How the results depend on the processing

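Counts are given for LCDD against DH-LMP2A, LCDD against WT and DH-LMP2A against WT, in that order. As reported they were 334, 308 and 105 genes and 2, 1 and 0 members. DESeq2 called 820, 737 and 472 genes and 5, 2 and 2 members. The 5 were Ltbp4, Nog, Bmp2, Fstl1 and Tgfb3, and the 2 in LCDD against WT were Bmp4 and Tgfb3. A mean of at least 5 CPM left 153, 116 and 54 genes and, in the first comparison, 0 members (edgeR). No filter left 293 genes and 1 member there. Fitting only the genotypes compared gave 213 and 185 genes and 1 and 0 members in the comparisons of LCDD. With the title code as replicate block there were 1021, 536 and 562 genes and 5, 1 and 4 members (11.1%, 2.22% and 8.89%, against 6.1%, 3.2% and 3.36% of all genes), of which 2, 1 and 0 were called without it too. In DH-LMP2A against WT the 4 were Bmp2, Lrg1, Smad7 and Tgfbr2, all lower. There and in LCDD against WT same-code correlations ran down to -0.16, so the code was not taken to pair those libraries. Apart from these and Bmp2, Fstl1 and Tgfbr3 in LCDD against DH-LMP2A, the block changed no call of a member. Of the other pathway genes it added Bmp1 (higher) and Nbl1 and Pmepa1 (lower) in LCDD against WT and Nbl1 (higher) in DH-LMP2A against WT, and it left 0 calls among TGF-beta response genes in LCDD against WT, Tnc included. The tubule covariate gave 1173 and 954 of 16738 genes and 8 and 11 of 45 members in the comparisons with DH-LMP2A. In LCDD against DH-LMP2A 646 genes and 7 members were higher, and 527 genes and 1 member lower. Among the 8 were Ltbp4, Nog, Fstl1, Id3, Smad6 and Smad7. In DH-LMP2A against WT 473 genes and 2 members were higher, and 481 genes and 9 members lower. Among the 11 were Nog, Lrg1, Id3, Smad6, Smad7 and Tgfbr2. The Y-linked covariate gave 23 and 36 genes in the comparisons with WT, and 0 members in LCDD against WT. Without the 3 single-mouse WT libraries 223, 54 and 69 genes and 1, 0 and 0 members were called. Of the covariates added after the data were seen, mesangial markers gave 29, 78 and 37 genes and 0, 1 and 0 members. The member called there in LCDD against WT was Tgfbr2, lower in LCDD, and Bmp4 was not called. Endothelial markers gave 258, 788 and 185 genes and 1, 4 and 0 members, and podocyte markers 363, 375 and 779 genes and 1, 2 and 6 members. Leaving out 1 library gave 113 to 484, 159 to 441 and 29 to 407 genes, and 0 to 3, 0 to 1 and 0 to 1 members. The gene count moved by over 1.5 times without LCDD replicate 1 or 2 or DH-LMP2A replicate 2, 3 or 4 in the first comparison, without WT replicate 3, 4 or 5 in LCDD against WT, and without DH-LMP2A replicate 2, 3 or 4 or WT replicate 1, 3, 4 or 5 in DH-LMP2A against WT. Where a call moved, the cause was not tested. Nog could not be tested at a mean of 5 CPM, and its few counts limit its precision. DESeq2 put 60.0% of calls in LCDD against WT on the higher side, against 70.5% by edgeR. The median log2 fold change of all genes stayed between -0.02 and 0.01 under each scaling.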

Other observations

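Bmp6, a BMP ligand known for its part in iron balance, had 86.6, 96.7, 37.7 and 29.8 CPM in LCDD replicates 1 to 4 and 113, 44.4, 41 and 26.7 CPM in DH-LMP2A replicates 1 to 4, with codes 1 to 4. WT libraries had 93.8, 99.4, 96.4, 76.3 and 90.3 CPM, so that each WT library of code 4 exceeded the LCDD and the DH-LMP2A library of that code. The log2 difference from WT was -0.52 ± 0.40 (SE) in LCDD and -0.70 ± 0.40 (SE) in DH-LMP2A, neither called (edgeR adjusted p = 0.732 and 0.509). Leaving out 1 library moved the first to between -0.83 (without LCDD replicate 2) and -0.28 (without LCDD replicate 4), and the second to as low as -1.26 (without DH-LMP2A replicate 1). Inhbb, an activin subunit, had 1.2, 3.38, 6.42 and 13 CPM in LCDD replicates 1 to 4, while DH-LMP2A libraries lay between 3.47 and 4.02 CPM and WT libraries between 3.70 and 12.9 CPM. The test of the code called neither Bmp6 nor Inhbb (edgeR adjusted p = 0.101 and 0.254). Whether the code goes with different changes in the genotypes was not tested, and both genes were picked after their values were seen.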
